A study of Mus musculus with 2 samples.

Results

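The 14-3-3 proteins are a family of small phosphoserine- and phosphothreonine-binding adaptors, and their messenger RNAs were followed here in E3.75 mouse embryos. The members were taken by gene symbol: Ywhab, Ywhae, Ywhag, Ywhah, Ywhaq, Ywhaz and Sfn, which are 7 of the 19559 genes listed. The family was chosen by the RPKM of Ywhae (reads divided by the length of the gene and by the size of the library), the highest of both libraries, so that rank is a description and supports nothing. The samples were 1 whole-blastocyst library and 1 library of the inner cell mass (ICM), freed of the outer cells by immunosurgery, in which antibody and complement lyse the outer layer. For both groups the mothers were B6CBAF1 and the fathers CD-1, no treatment or allele is named for either group, and no source used here gives the number of embryos per library. The whole blastocyst holds its own inner cells, so comparing the libraries sets inner cells against a mixture of inner and outer cells. By itself the comparison cannot assign a message to either.

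A 14-3-3 protein works as a dimer whose grooves hold phosphorylated motifs of partner proteins, and binding can keep a partner in the cytoplasm, shield its phosphate or change its activity. Known partners include RAF kinases, CDC25 phosphatases, FOXO transcription factors, the cell death protein BAD and the Hippo pathway co-activator YAP. In the blastocyst this last partnership is of interest because phosphorylated YAP stays in the cytoplasm of inner cells, whereas nuclear YAP acts with TEAD4 on trophectoderm genes in outer cells. Members can replace each other in many of these roles. SFN, the sigma protein or stratifin, is the member best known from epithelia and from arrest of the cell cycle after DNA damage.

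The coding sequences show how far reads can tell the members apart. They were read from the GENCODE M21 transcripts (build GRCm38), which place Ywhae on chromosome 11, Ywhab on 2, Ywhag and Ywhah on 5, Ywhaq on 12, Ywhaz on 15 and Sfn on 4. Over the 21 pairs of members, identity of the aligned coding bases ran from 59.8% to 79.0%, with a median of 67.5%. Ywhae was the most distant, at 59.8% to 63.4% identity with the other members, and Ywhag and Ywhah were the closest pair at 79.0%. The most alike stretch of 60 bases without a gap is shown for every member because over that length the members are hardest to tell apart there. It covers 20 codons in the last part of each coding sequence, from base 634 to 693 in Ywhae, where it lies in exon 5, and is given 5′ to 3′ with bases that differ from Ywhae in capitals.
Ywhae: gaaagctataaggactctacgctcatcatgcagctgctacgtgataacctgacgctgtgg
Ywhab: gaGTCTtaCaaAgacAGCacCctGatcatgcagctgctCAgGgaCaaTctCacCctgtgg
Ywhag: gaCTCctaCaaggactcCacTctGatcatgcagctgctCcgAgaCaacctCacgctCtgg
Ywhah: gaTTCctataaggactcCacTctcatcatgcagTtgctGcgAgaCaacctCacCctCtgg
Ywhaq: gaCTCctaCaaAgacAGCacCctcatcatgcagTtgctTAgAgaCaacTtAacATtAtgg
Ywhaz: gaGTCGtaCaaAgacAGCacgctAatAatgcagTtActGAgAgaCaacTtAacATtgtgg
Sfn: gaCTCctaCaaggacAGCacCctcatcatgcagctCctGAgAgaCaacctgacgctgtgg
Of these 60 bases, 36 were the same in all 7 members, and each member differed from Ywhae at 12 to 21 bases. The longest identical run in any pair was 30 bases, between Ywhag and Ywhah. No member shared an exact stretch of 35 bases with another member in the longest protein-coding transcripts compared.

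Reads on listed genes numbered 9271198 in the whole-blastocyst library and 4125479 in that of the ICM. With 1 library of each kind there was no replicate spread and no p-value was computed. The 95% intervals below cover counting error only, because reads of amplified cDNA that carries no molecular identifiers are not independent molecules. Most marker genes went with the labels. All 10 trophectoderm markers were at least 2-fold lower in the ICM library, where their summed RPKM was 55.3 compared with 1725 and Elf5 had no read. Krt18 alone made up 29.4 and 1418 of these sums. Of the 8 epiblast and 8 primitive endoderm markers, 7 in each list were at least 2-fold higher. The others were Sox2, at RPKM 2.47 in whole blastocysts and 3.60 in the ICM, and Gata6, at 31.2 and 22.7. Over all genes that reached RPKM 1 in a library, 44.0% were at least 2-fold lower and 8.96% at least 2-fold higher. With the centring given below, all trophectoderm markers but Elf5 stayed at least 2-fold lower, beside 20.5% of such genes. All 8 epiblast and 7 primitive endoderm markers were then at least 2-fold higher, beside 16.9%. In bulk RNA, fewer cells of a type and less RNA per cell cannot be told apart.

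Ywhae, which encodes the epsilon protein, had 81443 reads at RPKM 1484 in the whole blastocyst, and 53962 reads at RPKM 1167 in the ICM. The next genes by RPKM were Krt18 at 1418 in whole blastocysts and Dppa3 at 620.4 in the ICM. Ywhaz, the zeta gene, had 24916 reads at RPKM 275.8 in the whole blastocyst, and 15510 reads at 203.8 in the ICM. It ranked 64 of all genes by RPKM in whole blastocysts and 31 in the ICM. Both genes were abundant in either library, with Ywhae 5.38 times as high per length as Ywhaz in whole blastocysts and 5.73 times in the ICM.

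Ywhab, the beta gene, stood at RPKM 93.6 (8078 reads) in the whole blastocyst, compared with 52.5 (3818 reads) in the ICM. Ywhag, the gamma gene, had 69.4 (10226 reads) and 71.3 (8848 reads). By the deposited lengths these middle members changed places: Ywhab was 1.35 times Ywhag in whole blastocysts and 0.736 times Ywhag in the ICM. For Sfn the RPKM was 34.1 (2474 reads) in whole blastocysts and 19.3 (1180 reads) in the ICM.

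Ywhaq, the theta gene, reached 32.2 (1574 reads) in whole blastocysts and 10.5 (432 reads) in the ICM. Ywhah, the eta gene, had 27.7 (1774 reads) and 5.41 (292 reads), the lowest deposited level of the family in either library. In the whole blastocyst the counting intervals of Sfn (32.8 to 35.5) and Ywhaq (30.6 to 33.8) overlapped, so their order is not set by these reads. No other neighbours in the order overlapped in that library, and none did in the ICM, where Sfn, Ywhaq and Ywhah spread out.

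**Figure D1:**
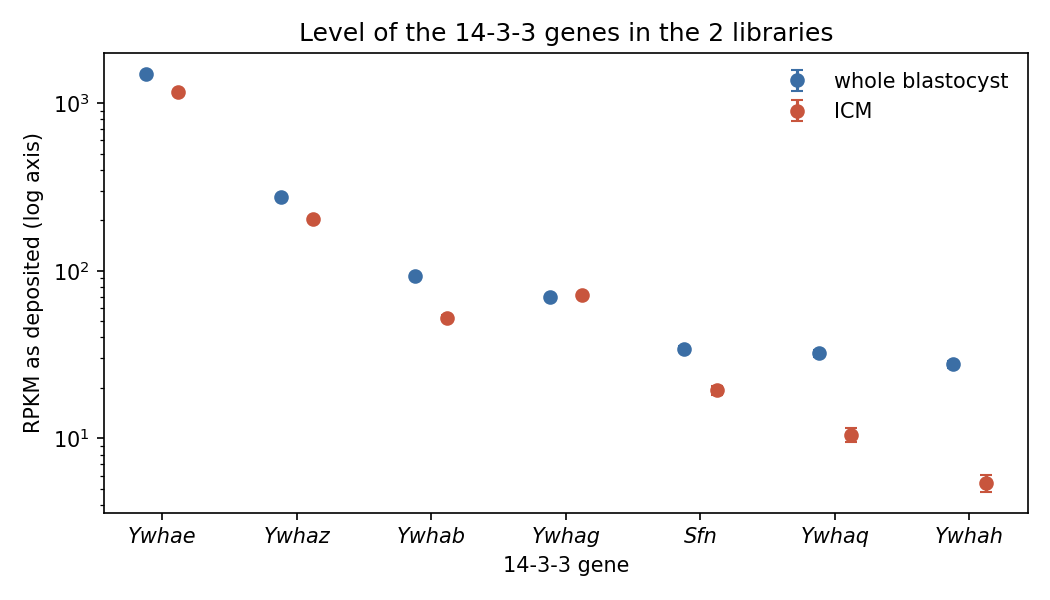
RPKM as deposited (log axis) of the 7 genes in the whole-blastocyst library (blue) and the ICM library (red), 1 library each, with bars for the 95% counting interval. Ywhae stands at 1484 and 1167, Ywhag is nearly level at 69.4 and 71.3, and Ywhah has the widest gap by ratio, at 27.7 and 5.41.

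The members differed from each other in how much of their level the ICM library held. Ywhag was level between the libraries, with a ratio of ICM to whole-blastocyst RPKM of 1.03 (0.998 to 1.06). Ywhae had a ratio of 0.786 (0.778 to 0.795) and Ywhaz 0.739 (0.724 to 0.754). Ywhab and Sfn were close together, at 0.561 (0.540 to 0.583) and 0.566 (0.528 to 0.607). Ywhaq was 3.07-fold lower in the ICM (2.76 to 3.42), and Ywhah was 5.12-fold lower (4.52 to 5.81).

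On the scale log2((ICM RPKM + 1)/(whole-blastocyst RPKM + 1)), the differences were 0.04 for Ywhag, -0.35 for Ywhae, -0.43 for Ywhaz, -0.79 for Sfn, -0.82 for Ywhab, -1.53 for Ywhaq and -2.16 for Ywhah. Of the 7 members, 2 were therefore at least 2-fold lower (28.6%), none was at least 2-fold higher and 5 lay within 2-fold. Among the 8981 genes that reached RPKM 1 in a library, called measured here, 44.0% were at least 2-fold lower and 8.96% at least 2-fold higher. The median of the members was -0.79, beside -0.84 over all these genes. Ywhag had a higher difference than 77.5% of the measured genes, Ywhae than 67.1%, Ywhaz than 64.2%, Sfn than 52.0%, Ywhab than 50.8%, Ywhaq than 24.0% and Ywhah than 10.7%. The family thus lay across the middle of the distribution, with Ywhah towards its lower end.

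**Figure D2:**
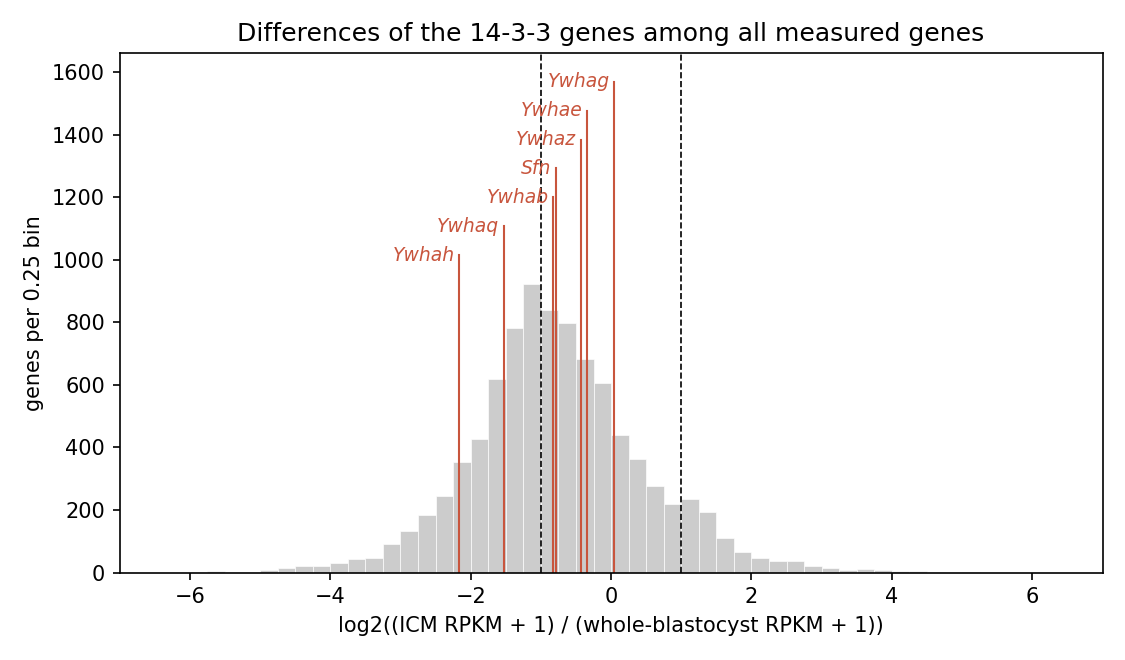
Number of genes per bin of the log2 difference between ICM and whole blastocyst (grey bars, 8981 genes), with a red line for each 14-3-3 gene and dashed lines at 2-fold. The red lines run from -2.16 for Ywhah to 0.04 for Ywhag, and 2 of the 7 lie beyond the lower dashed line.

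Sfn is the member known from epithelia, and the trophectoderm is the epithelium that immunosurgery removes. Sfn kept 56.6% of its whole-blastocyst RPKM in the ICM library. The trophectoderm markers with 100 or more whole-blastocyst reads kept a median of 7.77%, and Krt18 kept 2.08%. Among all listed genes that met the same read cut-off, the median share kept was 44.4%. By its log2 difference Sfn stood above 52.0% of the measured genes, so it lay near the middle of them. The part of the outer layer in the level of Sfn was not tested.

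The make-up of the family does not depend on any factor that scales a whole library. Ywhae made up 73.6% of the summed RPKM of the 7 members in whole blastocysts and 76.3% in the ICM. Ywhaz made up 13.7% and 13.3%, Ywhab 4.64% and 3.43%, and Ywhag 3.44% and 4.66%. The remaining members were minor, with Sfn at 1.69% and 1.26%, Ywhaq at 1.60% and 0.686%, and Ywhah at 1.37% and 0.353%. Quantile normalization, which is no such factor, turned the direction for Ywhae, to 76.6% in whole blastocysts and 71.3% in the ICM. Ywhae leads both libraries and so has the same value in each there by construction. The direction also turned for Ywhaz, to 12.03% and 16.02%, and for Ywhab, to 4.09% and 4.15%. Ywhag, Sfn, Ywhaq and Ywhah kept theirs.

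Set against the other members' reads, the odds of a Ywhag read were 1.38 times as high in the ICM as in the whole blastocyst (1.34 to 1.43). Those of a Ywhae read were 1.08 times as high (1.06 to 1.10), and those of a Ywhaz read 0.959 times (0.938 to 0.980). For Sfn the factor was 0.737 (0.687 to 0.791) and for Ywhab 0.721 (0.693 to 0.750). For Ywhaq it was 0.423 (0.379 to 0.471) and for Ywhah 0.253 (0.223 to 0.287). Within the family, by the reads as deposited, Ywhag and Ywhae thus held a larger part of the reads in the ICM library. The other members held a smaller part, which for Ywhah was the smallest relative to the whole blastocyst. These odds include the reads of Ywhae, whose level chose the family. Without Ywhae, Ywhaz made up 51.8% of the summed RPKM in whole blastocysts and 56.2% in the ICM, so its direction turned. Ywhag, at 13.0% and 19.7%, kept its direction, as did Ywhab, Sfn, Ywhaq and Ywhah.

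**Figure D3:**
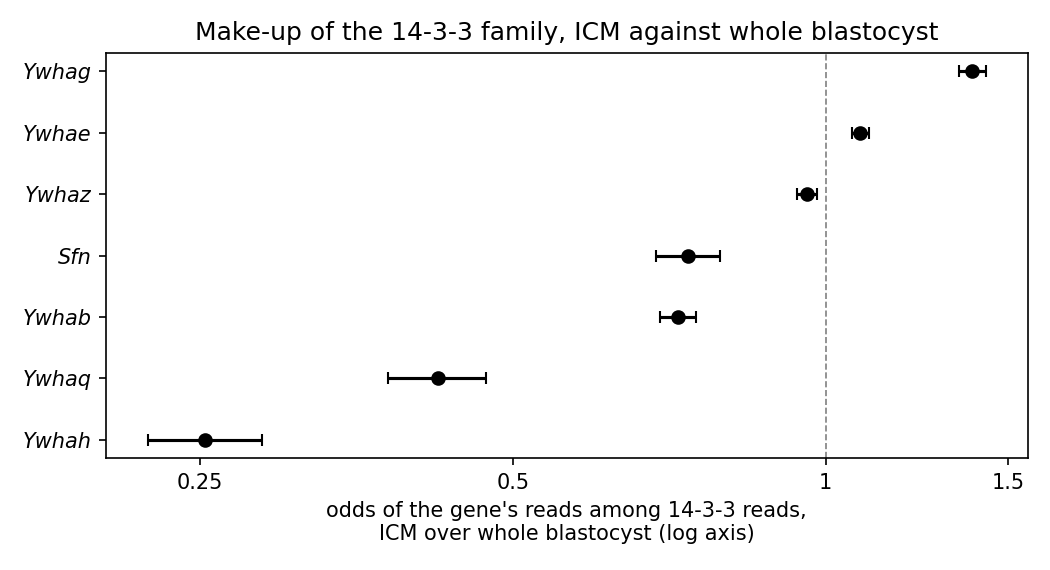
Odds of a read from each gene among all 14-3-3 reads, ICM over whole blastocyst (log axis), with bars for the exact 95% counting interval and a dashed line at no difference. Ywhag lies farthest right at 1.38 and Ywhah farthest left at 0.253.

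The pair with the most alike coding sequences also had the largest difference in ratio. Ywhag was 2.51 times as high as Ywhah in whole blastocysts and 13.2 times as high in the ICM, so the ratio between them changed 5.26-fold (4.63 to 5.99). Both genes lie on chromosome 5, Ywhag on the minus and Ywhah on the plus strand, and the transcripts compared have 2 exons each, whereas those of Ywhab, Ywhae, Ywhaq and Ywhaz have 6 or 7 and that of Sfn has 1. Ywhab and Sfn, in contrast, kept their ratio within counting error, with a change of 0.991-fold (0.915 to 1.07). Ywhae and Ywhaz, the most abundant members, changed 1.06-fold against each other (1.04 to 1.09).

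Summed over the family, the RPKM came to 2017 for the whole blastocyst and 1530 for the ICM, or 0.759 of it (0.752 to 0.765, from the counting error of the reads). Without Ywhae the sums were 532.8 and 362.8, a ratio of 0.681 (0.671 to 0.691). Over all listed genes the summed RPKM of the ICM library was 0.514 of that of the whole blastocyst. The members took 1.41% of the listed reads in whole blastocysts and 2.04% in the ICM, so their part of the listed reads was larger in the ICM library although their summed RPKM was smaller. Without Ywhae, whose level chose the family, the shares of the listed reads were 0.529% and 0.729%.

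The direction depended on the scaling between the libraries. The totals behind the deposited RPKM stood at a ratio of 0.842 between ICM and whole blastocyst, whereas the listed reads stood at 0.445. Over the 3013 genes that reached RPKM 5 in each library the median difference was -0.66. Relative to that shift, Ywhae had a difference of 0.31, Ywhaz of 0.22, Ywhag of 0.70, Sfn of -0.13, Ywhab of -0.16, Ywhaq of -0.87 and Ywhah of -1.50. Then 1 member, Ywhah, was at least 2-fold lower, beside 20.5% of all measured genes, and none was at least 2-fold higher, beside 16.9%.

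Across 6 scalings (the deposited RPKM, RPKM centred on that shift, TPM, quantile normalization, upper quartile scaling and scaling to the listed reads), Ywhah stayed below 0 at -2.16 to -1.33 and Ywhaq at -1.53 to -0.65. Ywhag stayed above 0 at 0.04 to 1.00. Its deposited value was level within counting error, with a ratio of 1.03 (0.998 to 1.06). With TPM (0.997) and quantile normalization (0.999) it came up to the 2-fold line without passing it. The differences of Ywhae (-0.35 to 0.61), Ywhaz (-0.43 to 0.52), Ywhab (-0.82 to 0.13) and Sfn (-0.79 to 0.14) took either sign, so no direction between the libraries can be given for them.

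**Figure D4:**
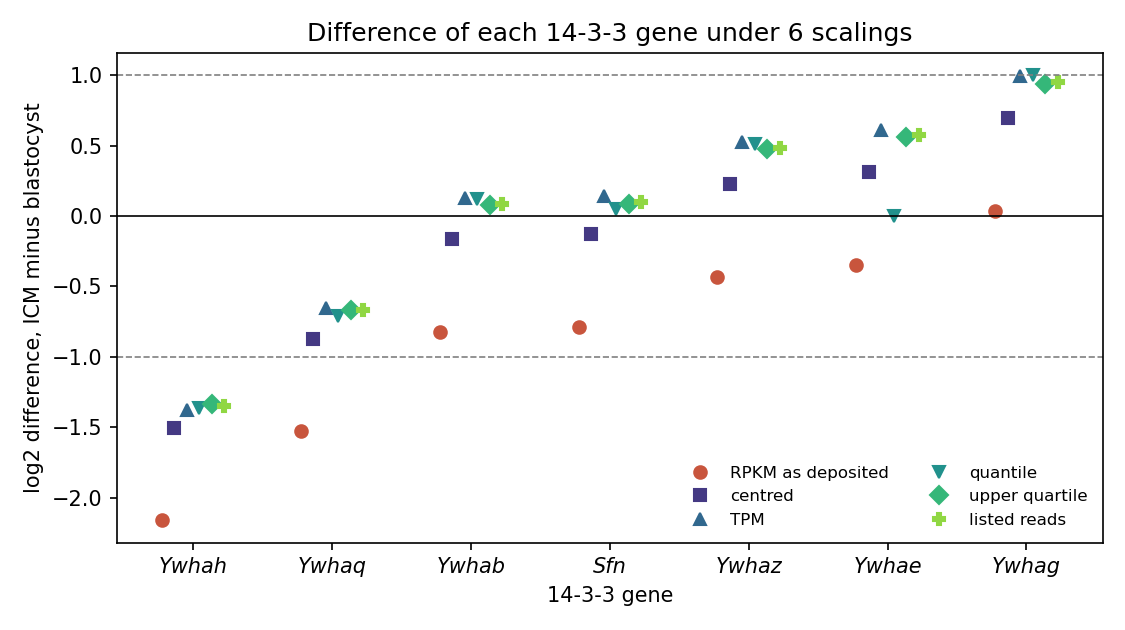
Log2 difference between ICM and whole blastocyst of each 14-3-3 gene under 6 scalings (symbols), with a line at 0 and dashed lines at 2-fold. Ywhah is below -1 under all 6, and Ywhae, Ywhaz, Ywhab and Sfn have values on both sides of 0.

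Levels between members rest on the gene lengths behind RPKM, which no source used here gives. The ratio of reads to RPKM shows these lengths relative to Ywhae. They were 2.68 for Ywhag, 1.65 for Ywhaz, 1.57 for Ywhab, 1.32 for Sfn, 1.17 for Ywhah and 0.891 for Ywhaq. The longest protein-coding transcripts in GENCODE M21, 2100 bases for Ywhae, gave 1.68 for Ywhag, 1.57 for Ywhaz, 1.43 for Ywhab, 0.768 for Sfn, 0.840 for Ywhah and 1.05 for Ywhaq. With those lengths Ywhae had 38782 reads per kilobase in whole blastocysts and 25696 in the ICM, the highest value among 16690 genes with a length in either library. The family was chosen by the RPKM of Ywhae, so this rank, from the same reads, is a description and supports nothing. By the GENCODE lengths Ywhag stood above Ywhab in the whole blastocyst too (2905 and 2681 reads per kilobase), and Ywhah above Ywhaq there (1006 and 716.4). The order of those pairs in the whole blastocyst therefore depends on the lengths, while ratios of a gene between the libraries do not.

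Several members have near-identical copies elsewhere in the transcript set, and how the authors placed reads that fit several places is not given. Exact stretches of 50 bases shared with another gene made up 37.8% of the Ywhaq transcript, 19.9% of Ywhaz, 18.6% of Ywhah, 15.0% of Sfn and 0.461% of Ywhag, and Ywhae and Ywhab shared none. The read length is not given, and with stretches of 35 bases the shares were 39.9% for Ywhaq, 20.7% for Ywhaz, 23.8% for Ywhah, 23.6% for Sfn, 0.889% for Ywhag and 0.168% for Ywhab, while Ywhae again shared none. Processed pseudogenes, which are copies of a messenger RNA inserted into the genome, carried 50-base stretches of Ywhaq (8 pseudogenes), Ywhaz (3), Sfn (3) and Ywhah (1), and the deposited table lists none of them under the names searched. For Ywhaq, 11 other genes shared 50-base stretches in all, so not all were processed pseudogenes. At 35 bases the genes sharing with Ywhaq included Cdk5rap2, with 18.5% of the stretches. The values of Ywhaq, Ywhaz, Sfn and Ywhah are uncertain to that extent. The lowest ratios between the libraries were those of Ywhah and Ywhaq, which have such copies, and the part of the copies in those ratios was not tested.

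By distance of log2(RPKM + 1) over the 2 libraries, the genes most like the members were found among all named genes. Ywhag was closest to Acaa2 (distance 0.006) and Ywhaq to Rnf123 (0.022). Ywhab was closest to Rod1 (0.055) and Ywhaz to Hsp90ab1 (0.083). For Ywhae, Malat1, Rab7 and Dppa3 were nearest at distances of 1.41, 1.47 and 1.53. Ywhae was named for having the highest RPKM in both libraries, so its distance from other genes is no finding. With 2 points per gene, likeness says only that the genes had similar levels in the same 2 libraries.

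The genes of 14-3-3 partners were taken as lists of client proteins, of the kinases that write their phosphorylated sites and of the phosphatases that remove them. Mark2 and Mark3 stand in both the client and the kinase list, and the client Krt18 is also a trophectoderm marker. Of 50 client genes, 36 were measured, and of these 17 were at least 2-fold lower in the ICM (47.2%), 1 was higher and 18 lay within 2-fold. Over all measured genes 44.0% were lower, and the median of the clients was -0.85, beside -0.84. Relative to the shift 9 clients were lower and 4 higher, beside 20.5% and 16.9% of all measured genes.

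Among clients with an RPKM of 5 or more in a library, the largest differences on the scale with 1 added were those of Krt18, the trophectoderm keratin, from an RPKM of 1418 to 29.4 (48.2-fold lower, 41.9 to 55.6), and of the myosin gene Myo1c, from 10.6 to 0.300 (35.5-fold lower, 23.5 to 56.2). The RAF family kinase gene Araf rested on 147 and 11 reads (11.3-fold lower, 6.11 to 23.0), and its relative Braf went from 7.38 to 2.18. Sos1, which activates RAS, went from 6.29 to 1.08, and the cell cycle phosphatase gene Cdc25a from 11.3 to 2.85. The autophagy gene Becn1 went from 33.7 to 10.4 and the deacetylase gene Sirt2 from 6.92 to 1.94. Relative to the shift, Braf, Becn1 and Sirt2 lay within 2-fold. On the scale with 1 added, the single client at least 2-fold higher was Zfp36l1, a gene of mRNA decay, at 4.29 and 12.3. Ulk1, at RPKM 10.9 and 22.5, had a ratio of 2.07 (1.90 to 2.26) but fell just short on that scale (0.99). As deposited, YAP itself was in the lower set: Yap1 stood at RPKM 32.1 in whole blastocysts and 14.1 in the ICM (within 2-fold relative to the shift), and its paralogue Wwtr1, the gene of TAZ, had 8.09 and 6.83. Zfp36l1, Ulk1, Yap1 and Wwtr1 were chosen after their values were seen.

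Of 32 genes of site kinases, 27 were measured, and 12 were at least 2-fold lower in the ICM (44.4%), 1 was higher and 14 lay within 2-fold, with a median of -0.99. The share lower was near the 44.0% of all measured genes. Relative to the shift 5 were lower and 4 higher, beside 20.5% and 16.9% of all measured genes. Sgk3, a kinase gene of the SGK family, went from 8.72 to 0.370 (23.6-fold lower, 18.0 to 31.5). Prkaa1, a catalytic subunit gene of the energy sensor AMPK, went from 7.61 to 1.03, and the Hippo kinase gene Lats2 from 10.5 to 2.64. On the scale with 1 added, which understates the change of low genes, the single kinase at least 2-fold higher was Prkd3 (22 and 130 reads). It was chosen after its values were seen. Of 13 phosphatase genes 12 were measured, and 6 were at least 2-fold lower, none was higher and 6 lay within 2-fold, with a median of -0.96, beside 44.0% lower and a median of -0.84 over all measured genes. Relative to the shift 2 were lower, beside 20.5% of all measured genes, and none was higher. Ppp1cb, a catalytic subunit gene of protein phosphatase 1, went from 150.5 to 38.3, and Ppp2r5e, a regulatory subunit gene of protein phosphatase 2A, from 8.22 to 1.85.

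**Figure D5:**
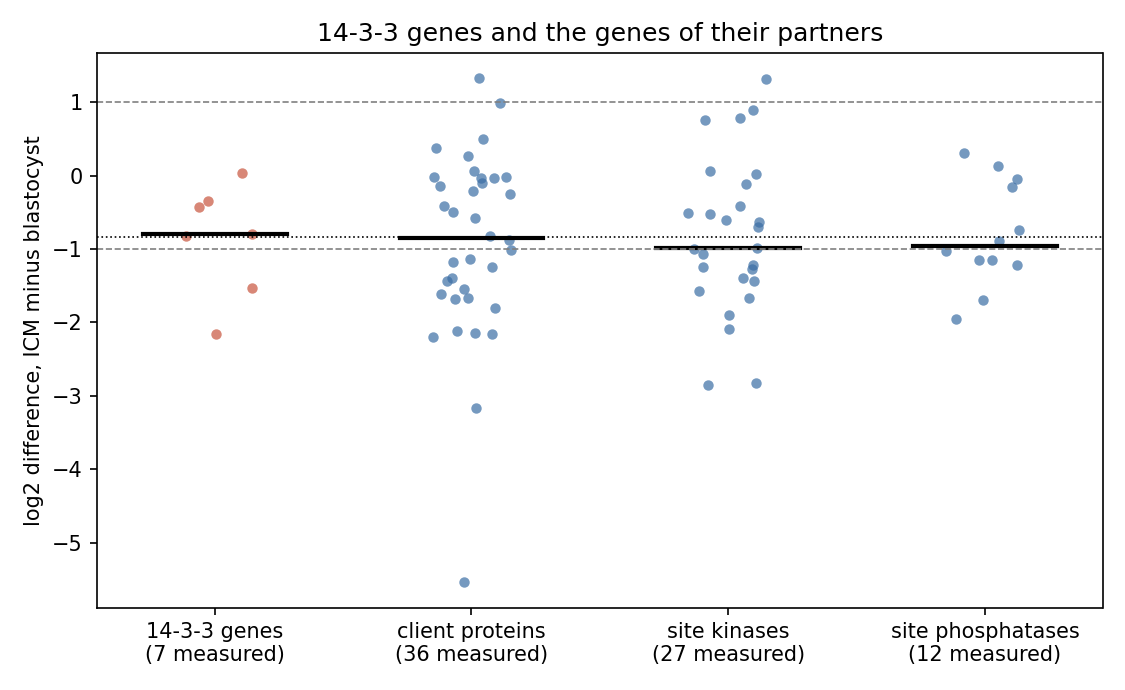
Log2 difference between ICM and whole blastocyst of the 14-3-3 genes (red) and of the measured genes of their clients, site kinases and site phosphatases (blue), with black bars for the medians, dashed lines at 2-fold and a dotted line for the median of all measured genes. The medians of the 4 groups lie between -0.99 and -0.79, beside -0.84 for all measured genes.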

How the data were processed

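For each gene and library the authors deposited a read count, in whole numbers, and an RPKM value, per the file headers. SOLiD sequencing followed PicoPure RNA isolation and NuGEN Ovation amplification, per the labels' protocols. Reads were placed on build mm9, according to the submitters' processing notes. No source used here names the aligner, the gene models and lengths, the use of strand or the placing of reads that fit several places. The RPKM worth of 1 read differed between the libraries by the same factor for every gene, so each gene had 1 length in both.

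A difference is the log2 of ICM over whole-blastocyst RPKM after adding 1 to each, which understates the change of low genes. Genes entered if 1 library or more reached RPKM 1, and all 7 members reached RPKM 5 in each. Ratios carry exact conditional (Clopper-Pearson) 95% intervals from the reads (scipy 1.17.1), odds carry exact conditional intervals (fisher.test, R 4.3.3) and RPKM values exact Poisson intervals. The interval of a summed ratio is a normal approximation. No test was made with 1 library per group. Coding sequences were aligned by codon with MAFFT 7.526, and exact stretches of 35 and 50 bases were searched on both strands of all GENCODE M21 transcripts. The ratio intervals and the 2-fold calls were tested on simulated counts with no overall shift between the libraries. The other computations were not part of that test.

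The members, the lists and the rule for named genes were chosen with earlier results of these data known. The rule names all members, the 8 clients, 4 kinases and 2 phosphatases with the largest difference at an RPKM of 5 or more, and the nearest genes. Some genes that it takes are not reported here. Of the list genes, 1 was matched by an older symbol and 1, a blood marker, was not matched. Scaling to the listed reads and GENCODE lengths were added after the data were seen.

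Of the markers of other cells, 1 of 3 blood markers found (Cd68), 4 of 6 cumulus and uterine markers and 2 of 5 mesenchyme markers reached an RPKM of 1, with summed RPKM values in the whole blastocyst and the ICM of 3.71 and 0.410, 44.1 and 3.83, and 0.548 and 29.1. In the same order, the reads of Vim were 7 and 289. The measured cumulus and uterine markers differed in direction. Their reads were 324 and 0 for Cyp11a1, 158 and 7 for Wfdc2, 239 and 61 for Star, and 0 and 91 for Cyp19a1. The part of these other cells in the results was not tested.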

Additional observations from a re-analysis of the deposited data

How the results depend on the processing

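With the deposited RPKM 2 members were at least 2-fold lower in the ICM, and 1 was under centring, TPM, quantile normalization, upper quartile scaling and scaling to the listed reads. None was at least 2-fold higher under any of these. Over all genes measured in each setting, those at least 2-fold lower numbered 3950 of 8981 as deposited and 1838 of 8981 centred. With TPM they numbered 3642 of 11602, where more genes reached the same cut-off. They were 1893 of 8986 with quantile normalization, 2018 of 8825 with upper quartile scaling and 2312 of 9402 with the listed reads. In the same order, 805, 1516, 2869, 1854, 1686 and 1910 were at least 2-fold higher. The median of the members, -0.79 as deposited, was -0.13 centred, 0.14 with TPM, 0.047 with quantile normalization, 0.086 with upper quartile scaling, 0.10 with the listed reads and -0.69 with a pseudocount of 5. The ratio of the summed RPKM, 0.759 as deposited, was 1.20, 1.48, 1.07, 1.43 and 1.44 under the 5 other scalings in that order, and 0.681 without Ywhae.

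Client genes at least 2-fold lower numbered 17 as deposited, 16 with TPM, 9 centred, 7 with quantile normalization, 9 with upper quartile scaling, 9 with the listed reads, 4 with a pseudocount of 5 and 11 with an RPKM of 5 or more. Kinase genes numbered 12 as deposited, 10 with TPM, and 5 under centring, quantile normalization, upper quartile scaling, the listed reads and a pseudocount of 5. Phosphatase genes numbered 6 as deposited, 2 centred, 3 with TPM, 1 with quantile normalization, 1 with upper quartile scaling, 2 with the listed reads and 2 with a pseudocount of 5. The counts over all genes stand above for the 6 scalings and are not given for the other settings. The share of Ywhae in the family, 73.6% and 76.3% in whole blastocyst and ICM, was 62.4% and 64.2% of reads, and 70.3% and 72.8% with GENCODE lengths. The order of the members' differences changed under quantile normalization alone among the settings run. There Ywhae leads both libraries and so has a difference of 0 by construction. Sfn (0.047) and Ywhab (0.123) also changed places there. No paired analysis was possible because there was 1 library per group. Depth limits Ywhah most, at 292 ICM reads. The lack of replicates limits every comparison.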
